A study of Mus musculus with 12 samples.

Results

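The 10 genes *Stab1*, *Stab2*, *Lyve1*, *Clec4g*, *Oit3*, *Gata4*, *Cd34*, *Vwf*, *Plvap* and *Pecam1* describe the endothelial cells that line the sinusoids of the liver and the change of those cells known as capillarization. They were chosen by name, matched by Ensembl identifier to 10 of the 40551 genes counted in each library, and measured by total RNA sequencing of 12 whole mouse livers. All 10 had enough reads to be tested among 15070 genes. The study asked what loss of the innate immune adaptor STING does in livers whose hepatocytes lack the survival protein MCL1.

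Each of the 4 groups held 3 livers. The WT livers carried neither deletion. The Mcl1Δhep livers, labelled Mcl1 KO, came from mice in which Alb-Cre, a recombinase driven by the albumin promoter, removed floxed *Mcl1*. Cre is then made in hepatocytes, so that the deletion is not aimed at endothelial cells and a whole-liver library keeps *Mcl1* reads from the other cell types. The Mcl1Δhep Sting1-/- livers, labelled Mcl1 Sting1 DKO, combined that deletion with whole-body loss of *Sting1*, and the Sting1-/- livers, labelled Sting1 KO, had whole-body loss of *Sting1* alone, in every cell type including the endothelium. The study analyzed WT, Mcl1Δhep and Mcl1Δhep Sting1-/- mice at 2 months and at a later age, and its animals were of both sexes. It gives 2 months as the age of the livers sequenced to compare Mcl1Δhep with WT. The labels give no age, sex or strain for any single liver.

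Sinusoidal endothelial cells of a healthy liver are perforated by fenestrae, lack an organized basement membrane and clear macromolecules from the blood through scavenger receptors. In capillarization, known from chronic liver injury, the cells lose fenestrae and scavenger receptors and gain features of continuous capillaries, among them a basement membrane and surface CD34. STAB1, STAB2, LYVE1, CLEC4G and OIT3 are products typical of the sinusoid, GATA4 is the transcription factor that keeps the sinusoidal program on, and CD34, VWF, PLVAP and PECAM1 are found in continuous or large vessels, though PLVAP and PECAM1 are also present in normal sinusoidal cells.

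Of the 10 genes, *Cd34* was the member that changed. It was higher in Mcl1Δhep than in WT livers by 3.05-fold, while the sinusoidal genes and *Vwf*, *Plvap* and *Pecam1* did not pass the test in that comparison. In Mcl1Δhep Sting1-/- livers *Cd34* averaged 3.84 CPM (counts scaled to a common library size), near the 3.17 CPM of WT livers, but the difference from Mcl1Δhep livers did not pass the main test.

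The windows upstream of 4 of the 10 genes are shown, those of the members held in the RefSeq promoter table used here. They are *Cd34*, the member that was called, and the sinusoidal genes *Clec4g*, *Stab1* and *Stab2*. Each sequence is written 5′ to 3′ on the strand of the gene and placed on GRCm39 by exact match, and ends just before the annotated start of the gene. Capitals mark letters matching GATA factor words (AGATAA or its variant AGATAG, as well as TGATAA or its variant TGATAG) or ETS factor words (CCGGAA or its variant CAGGAA), searched on both strands. No marked word overlapped another.
Cd34, chr1:194620879-194621028, plus strand: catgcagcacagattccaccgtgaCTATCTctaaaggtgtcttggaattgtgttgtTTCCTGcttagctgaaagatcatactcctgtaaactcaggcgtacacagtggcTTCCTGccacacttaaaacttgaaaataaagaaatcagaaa
Clec4g, chr8:3770672-3770901, minus strand: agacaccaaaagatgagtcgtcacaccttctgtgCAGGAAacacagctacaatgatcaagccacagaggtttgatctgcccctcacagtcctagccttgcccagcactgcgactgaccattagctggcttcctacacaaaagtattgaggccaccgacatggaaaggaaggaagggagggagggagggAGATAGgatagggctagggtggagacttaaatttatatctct
Stab1, chr14:30890599-30890848, minus strand: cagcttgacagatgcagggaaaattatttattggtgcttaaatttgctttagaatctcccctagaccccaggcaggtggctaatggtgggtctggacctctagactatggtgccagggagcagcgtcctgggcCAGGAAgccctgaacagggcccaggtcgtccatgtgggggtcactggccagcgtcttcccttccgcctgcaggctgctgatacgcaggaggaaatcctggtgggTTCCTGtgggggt
Stab2, chr10:86843890-86844056, minus strand: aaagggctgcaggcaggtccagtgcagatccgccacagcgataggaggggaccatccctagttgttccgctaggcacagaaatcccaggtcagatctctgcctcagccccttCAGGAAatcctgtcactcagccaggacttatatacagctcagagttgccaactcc

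The *Cd34* window of 150 bases held 1 GATA word and 2 ETS words, and the *Clec4g* window of 230 bases held 1 of each. The *Stab1* window of 250 bases held 2 ETS words and the *Stab2* window of 167 bases held 1, with no GATA word in either. Among 32851 RefSeq promoters cut to the length of the *Cd34* window, 18.6% held a GATA word and 20.8% an ETS word. Cut to the *Clec4g* length, 25.4% held a GATA word and 32% an ETS word, and the ETS shares were 35.1% at the *Stab1* length and 23.2% at the *Stab2* length. Such words are therefore common, and the matches describe letters only.

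The libraries held 28826367 to 45266387 counts each. Hepatocyte markers, which define the labelled tissue, made up 10.2% to 16.3% of the counts in each library. *Mcl1* read 90.2, 102 and 104 CPM in WT, 27.9, 34 and 25 CPM in Mcl1Δhep, 18.1, 22.9 and 26 CPM in Mcl1Δhep Sting1-/- and 78.3, 90.1 and 77 CPM in Sting1-/- livers, so that all 6 libraries labelled with the *Mcl1* deletion lay below the other 6. *Sting1* read 2.53, 2.43 and 2.11 CPM in WT, 4.59, 6 and 3.67 CPM in Mcl1Δhep, 1.9, 2.53 and 2.33 CPM in Mcl1Δhep Sting1-/- and 1.16, 1.72 and 2.7 CPM in Sting1-/- livers. Its gene counts overlapped between WT and both groups labelled as lacking it, so they did not check that label by themselves, and directions drawn from it rest on the libraries as labelled. Mcl1Δhep replicates 2 and 3 stood apart, with 2.77% and 1.55% of counts on small structured RNAs against 0.192% to 0.98% in the other 10, and replicate 3 also carried 1233 CPM of skeletal muscle markers against at most 6.53 CPM elsewhere. Y-linked genes were expressed in WT replicates 2 and 3 and Mcl1Δhep Sting1-/- replicate 1 alone. As far as these genes show it, sex was uneven between the groups. In Mcl1Δhep against WT livers its part cannot be fully told apart from that of genotype.

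Members were compared with each other per length of transcript. In TPM, which divide counts by exon length and scale each library to a common total, the mean level in WT livers ran from *Oit3* at 51.8 ± 7.31 TPM (SD, n = 3) through *Plvap* at 48.6 ± 7.19, *Clec4g* at 44.3 ± 9.07, *Stab2* at 28.9 ± 7.3, *Stab1* at 24.3 ± 4.39, *Pecam1* at 10.2 ± 1.81, *Gata4* at 10.1 ± 0.914, *Lyve1* at 9.1 ± 2.19 and *Vwf* at 3.64 ± 1.13 to *Cd34* at 0.96 ± 0.38 TPM. Within this order the ranges of mean ± SD overlapped among *Oit3*, *Plvap* and *Clec4g*, between *Clec4g* and *Stab2*, between *Stab2* and *Stab1*, and among *Pecam1*, *Gata4* and *Lyve1*. In whole liver, fewer cells of a type and less RNA per cell cannot be told apart, and this holds for every level given here.

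The scavenger receptors came first among the sinusoidal genes. *Stab1*, stabilin-1, on the minus strand at chr14:30860970-30890598, read 74.8, 56.7 and 76.5 CPM in WT livers, 105, 58.6 and 61 CPM in Mcl1Δhep livers, 62.2, 74.5 and 83.9 CPM in Mcl1Δhep Sting1-/- livers and 86.3, 95.3 and 75.7 CPM in Sting1-/- livers. A single Mcl1Δhep liver, replicate 1, held the highest value of all 12, and all 4 groups overlapped. *Stab2*, stabilin-2, the main hyaluronan clearance receptor of the sinusoid, at chr10:86675054-86843889, read 91, 63.1 and 105 CPM in WT, 109, 44.2 and 67.6 CPM in Mcl1Δhep, 72.9, 96.7 and 111 CPM in Mcl1Δhep Sting1-/- and 121, 130 and 98.1 CPM in Sting1-/- livers. The lowest *Stab2* value was in the Mcl1Δhep group, in replicate 2, and that group spanned a wider range than any other.

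The fits gave no call for the stabilins. By edgeR's quasi-likelihood test with Benjamini-Hochberg adjustment over all genes tested, the log2 fold change of *Stab1* between Mcl1Δhep and WT livers was 0.11 ± 0.22 (SE, adjusted p = 0.758) and that of *Stab2* was -0.23 ± 0.30 (adjusted p = 0.607). *Stab2* relative to *Stab1*, in TPM, was 116%, 106% and 131% in WT, 99.7%, 72.1% and 106% in Mcl1Δhep, 112%, 124% and 126% in Mcl1Δhep Sting1-/- and 133%, 130% and 124% in Sting1-/- livers. Mcl1Δhep replicates 1 and 2 lay below the WT range, and all 3 Mcl1Δhep livers lay below the Mcl1Δhep Sting1-/- livers. These ratios were computed after the values had been seen and were not tested.

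*Lyve1*, a hyaluronan receptor shared by sinusoidal and lymphatic endothelium, at chr7:110448585-110462460, read 12.4, 8.22 and 10.9 CPM in WT, 17.3, 19.1 and 10.2 CPM in Mcl1Δhep, 10.8, 6.29 and 10.2 CPM in Mcl1Δhep Sting1-/- and 7.86, 8.94 and 7.07 CPM in Sting1-/- livers. Of the Mcl1Δhep livers, replicates 1 and 2 exceeded all 9 livers of the other groups while replicate 3 sat among them. The log2 fold change was 0.57 ± 0.26 against WT (adjusted p = 0.136) and -0.78 ± 0.26 for Mcl1Δhep Sting1-/- against Mcl1Δhep (adjusted p = 0.157, unadjusted p = 0.0118), by edgeR. Without Mcl1Δhep replicate 3, the library with the muscle transcripts, the first became 0.79 with an adjusted p of 0.0425. Without Mcl1Δhep replicate 2 it became 0.39. These were the highest and lowest values of the 12 fits with 1 library left out, and no other such fit passed the test.

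*Clec4g*, which encodes the C-type lectin LSECtin, at chr8:3757064-3770671, read 63.8, 46 and 65.1 CPM in WT, 52.7, 57.1 and 88.2 CPM in Mcl1Δhep, 43.9, 66 and 71.3 CPM in Mcl1Δhep Sting1-/- and 63.8, 72.4 and 75.5 CPM in Sting1-/- livers. *Oit3*, a secreted protein made in the liver chiefly by sinusoidal endothelium, at chr10:59258780-59277702, read 44.1, 36 and 44.7 CPM in WT, 51, 25.9 and 31.1 CPM in Mcl1Δhep, 30.9, 45 and 46.4 CPM in Mcl1Δhep Sting1-/- and 40.2, 48.7 and 39.2 CPM in Sting1-/- livers. In neither gene did any pair of groups separate. The log2 fold changes of Mcl1Δhep against WT livers were 0.18 ± 0.23 for *Clec4g* and -0.21 ± 0.24 for *Oit3*, with edgeR adjusted p of 0.605 and 0.557.

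*Gata4*, at chr14:63436362-63509141, read 16.6, 16.2 and 15.1 CPM in WT, 17.4, 6.73 and 12.3 CPM in Mcl1Δhep, 16.2, 12.3 and 12 CPM in Mcl1Δhep Sting1-/- and 11.3, 14.8 and 11.6 CPM in Sting1-/- livers. The 3 WT livers lay close together at 15.9 ± 0.792 CPM (SD, n = 3), whereas the Mcl1Δhep livers held both the highest and the lowest value of the series. The log2 fold change of Mcl1Δhep against WT was -0.39 ± 0.27 (edgeR adjusted p = 0.314). GATA4 is also made by hepatocytes and stellate cells, so its level in whole liver is not a reading of the endothelium alone. Leaving out Mcl1Δhep replicate 1 took *Gata4* to -0.75 (adjusted p = 0.0366) and *Oit3* to -0.55 (adjusted p = 0.0482). The pair that remained were the libraries rich in small structured RNAs. Leaving out Mcl1Δhep replicate 2 instead took *Gata4* to -0.10 and *Oit3* to -0.02. No other fit with 1 library left out called either gene, so the size of both changes rested on single Mcl1Δhep libraries.

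**Figure D1:**
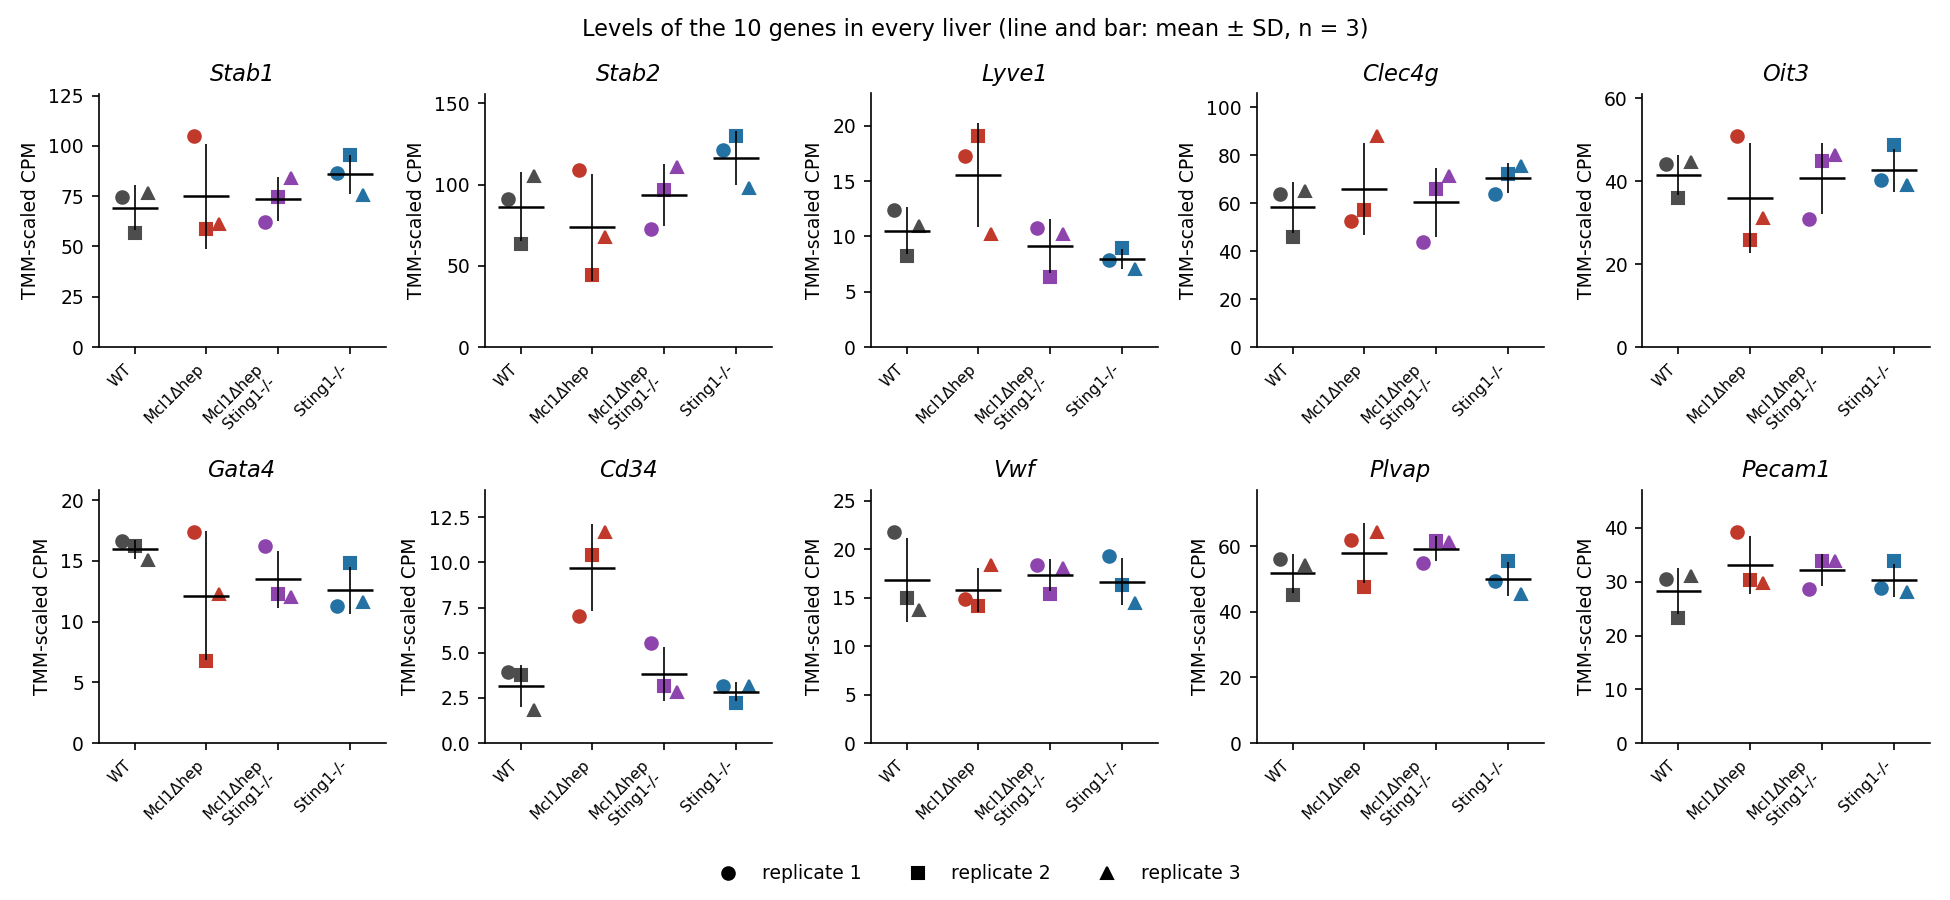
Level of each of the 10 genes in every liver, in CPM scaled by trimmed mean of M values (TMM), on linear axes starting at 0. Symbols are single livers, horizontal lines are group means and vertical bars are SD (n = 3). *Cd34* is the panel in which the 3 Mcl1Δhep livers, at 7.03 to 11.7 CPM, all lie above the other 9 livers.

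*Cd34*, which encodes a sialomucin of continuous capillaries that is also carried by blood progenitors and some fibroblasts, at chr1:194621029-194647172 on the plus strand, was the exception. It read 3.93, 3.77 and 1.82 CPM in WT livers, from 149, 127 and 55 counts. In Mcl1Δhep livers it read 7.03, 10.4 and 11.7 CPM, from 340, 339 and 371 counts. In Mcl1Δhep Sting1-/- livers it read 5.55, 3.14 and 2.82 CPM and in Sting1-/- livers 3.17, 2.23 and 3.16 CPM. The Mcl1Δhep livers did not overlap any other group, and Mcl1Δhep Sting1-/- replicate 1 was the highest of the remaining 9.

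Against WT, *Cd34* rose by 1.61 ± 0.34 on the log2 scale (SE) in Mcl1Δhep livers, with an adjusted p of 0.00931 by edgeR and of 6.75e-05 by DESeq2. It was called in all 12 fits that left out 1 library, with log2 fold changes from 1.33 to 1.79. When the fit also carried each library's small RNA share, the value was 1.33 and the adjusted p 0.179. Without Mcl1Δhep replicates 2 and 3, a setting chosen after the data had been seen, the lone remaining Mcl1Δhep liver gave 1.15 (adjusted p = 0.17). That liver, replicate 1, had 0.314% small structured RNA, within the WT range. Its 7.03 CPM stood above all 3 WT livers but was the lowest of its own group. Whether small RNA share caused part of the difference was not tested.

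**Figure D2:**
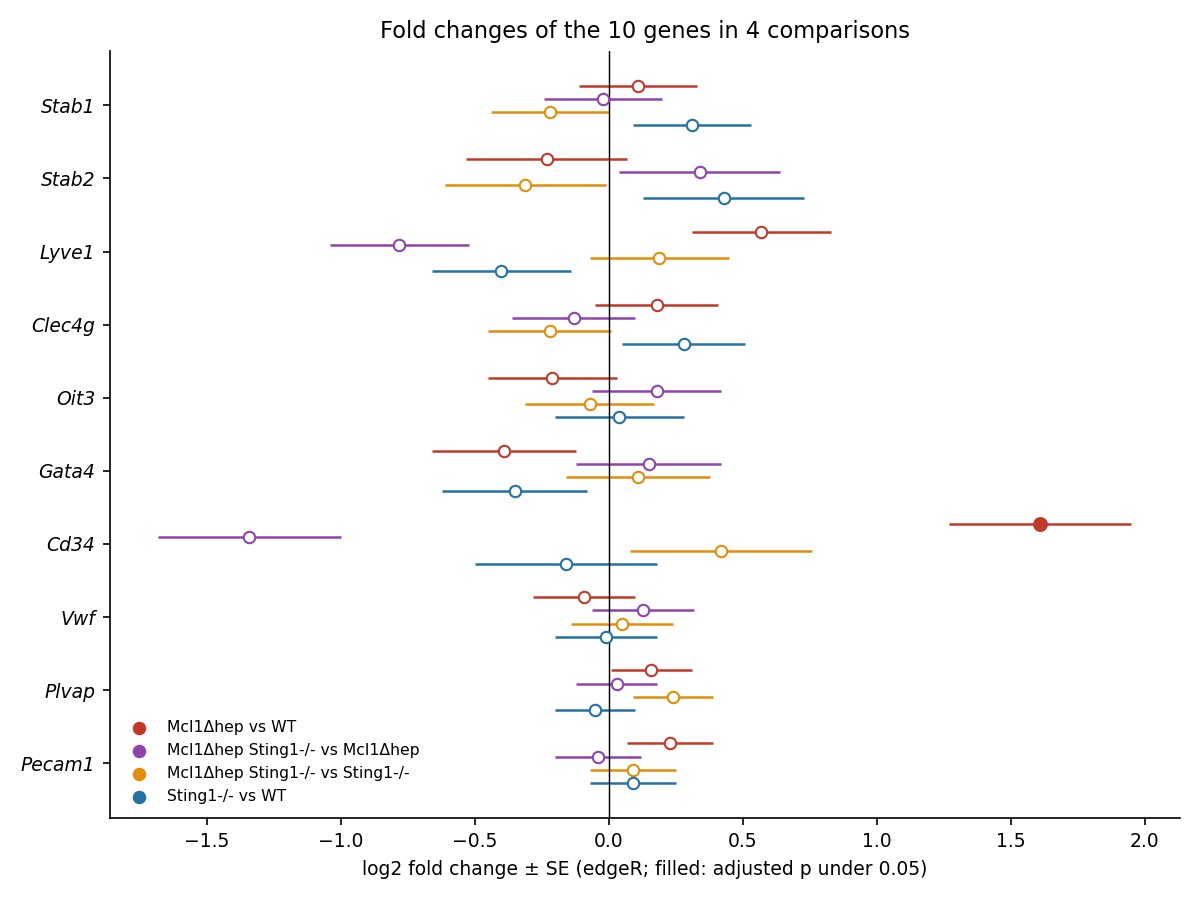
Log2 fold changes of the 10 genes in the 4 comparisons, as estimated by edgeR from all 12 libraries. Horizontal bars are SE and the filled point marks an adjusted p under 0.05. The filled point is *Cd34* in Mcl1Δhep against WT livers at 1.61, and its point at -1.34 for Mcl1Δhep Sting1-/- against Mcl1Δhep livers is open.

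The other 3 vascular members did not follow *Cd34*. *Vwf*, von Willebrand factor, stored by the endothelium of larger vessels and also carried in platelets, at chr6:125523737-125663642, read 21.8, 15 and 13.7 CPM in WT, 14.9, 14.1 and 18.4 CPM in Mcl1Δhep, 18.4, 15.4 and 18.1 CPM in Mcl1Δhep Sting1-/- and 19.3, 16.3 and 14.4 CPM in Sting1-/- livers. Its log2 fold change in Mcl1Δhep against WT livers was -0.09 ± 0.19 (edgeR adjusted p = 0.759). *Plvap*, which forms the diaphragms of fenestrae and caveolae, at chr8:71948674-71964506, read 56, 45 and 54.4 CPM in WT, 61.9, 47.6 and 64.4 CPM in Mcl1Δhep, 54.8, 61.6 and 61.2 CPM in Mcl1Δhep Sting1-/- and 49.3, 55.6 and 45.4 CPM in Sting1-/- livers. Its log2 fold change was 0.16 ± 0.15 (edgeR adjusted p = 0.45), and 834 of its exon bases lie opposite exons of *Gtpbp3*, from which its reads could not be separated if counting ignored strand.

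*Pecam1*, the junctional protein CD31 of all endothelium, also found on platelets and leukocytes, at chr11:106543689-106641454, read 30.6, 23.3 and 31 CPM in WT, 39.3, 30.4 and 29.7 CPM in Mcl1Δhep, 28.7, 33.9 and 33.8 CPM in Mcl1Δhep Sting1-/- and 28.8, 33.8 and 28.1 CPM in Sting1-/- livers. All groups overlapped, and the log2 fold change of Mcl1Δhep against WT livers was 0.23 ± 0.16 (edgeR adjusted p = 0.319). *Pecam1* was therefore also used as a scale for *Cd34*, after the values had been seen and with no test. In TPM, *Cd34* was 10.7%, 13.5% and 4.89% of *Pecam1* in WT, 15%, 28.5% and 33.1% in Mcl1Δhep, 16.1%, 7.75% and 6.97% in Mcl1Δhep Sting1-/- and 9.2%, 5.52% and 9.41% in Sting1-/- livers. On this scale all 3 Mcl1Δhep livers remained above WT, and Mcl1Δhep Sting1-/- replicate 1 stood between the 2 highest and the lowest of them.

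**Figure D3:**
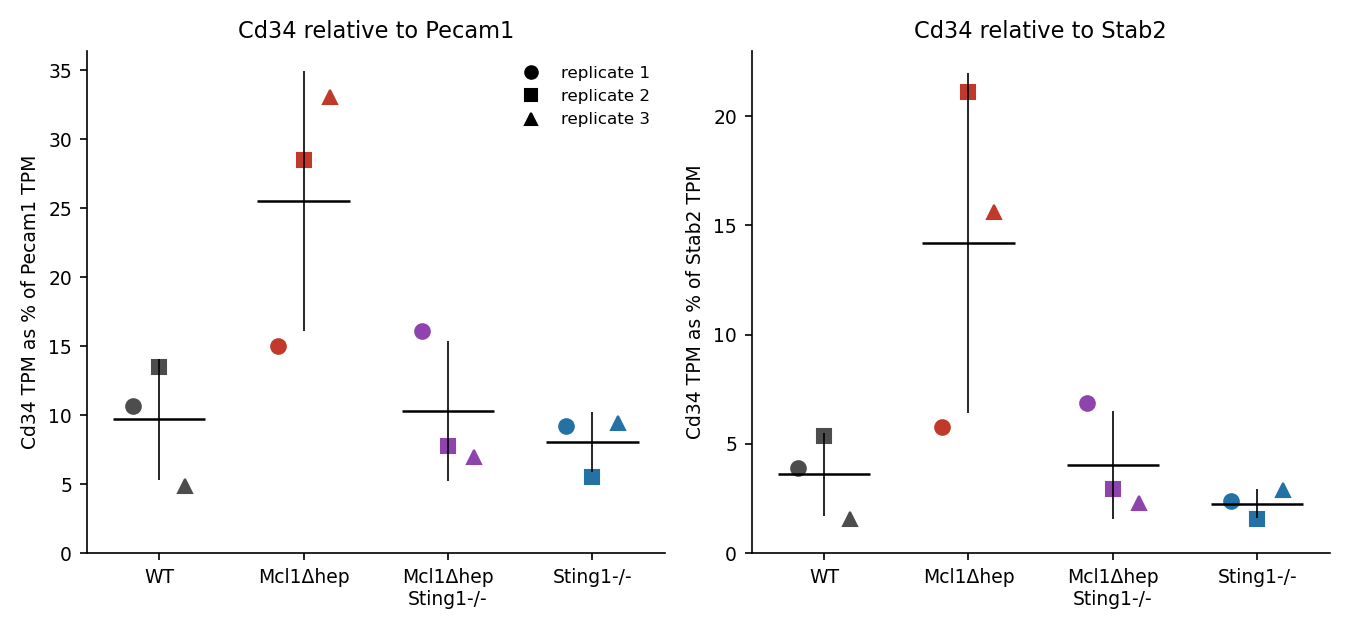
*Cd34* in TPM as a percent of *Pecam1* TPM (left) and of *Stab2* TPM (right) in every liver, with group means and SD (n = 3). Against *Pecam1* the Mcl1Δhep livers lie at 15% to 33.1% and the WT livers at 4.89% to 13.5%, and against *Stab2* at 5.79% to 21.1% and 1.55% to 5.37%. Mcl1Δhep Sting1-/- replicate 1, at 16.1% and 6.85%, lies above the lowest Mcl1Δhep liver on both scales.

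Counted over the members, 1 of 10 was called in Mcl1Δhep against WT livers, in the upward direction, by edgeR and by DESeq2 alike. Over all genes edgeR called 20.2%, with 10.8% called higher, and DESeq2 called 23.3%. The groups did not overlap for 1 of 10 members against 33.3% of all genes tested, and 1 of 10 had an unadjusted p under 0.05 against 36.9%. For calls in the upward direction the members' share was near the background, so that it is no result about the members as a set. Their median log2 fold change was 0.14, beside 0.00 for all genes, with 6 of 10 above 0.

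Between Mcl1Δhep Sting1-/- and Mcl1Δhep livers, *Cd34* had a log2 fold change of -1.34 ± 0.34 and the groups did not overlap. The unadjusted p was 0.00183 and the edgeR adjusted p 0.133, in a comparison where edgeR called 0 of 10 members and 0% of all genes, while 20.6% of all genes had an unadjusted p under 0.05. DESeq2 called *Cd34* here (adjusted p = 0.00831), as the only member, against 4.77% of all genes. Without Mcl1Δhep replicate 1, edgeR called it too, at -1.53 (adjusted p = 0.0143). Groups failed to overlap for 1 of 10 members and 18.2% of genes, and 2 of 10 members, *Cd34* and *Lyve1*, had an unadjusted p under 0.05. The remaining 8 members had log2 fold changes from -0.13 for *Clec4g* to 0.34 for *Stab2*.

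On the Sting1-/- background no member passed the test for an effect of the *Mcl1* deletion. Against Sting1-/- livers, the Mcl1Δhep Sting1-/- livers had a *Cd34* log2 fold change of 0.42 ± 0.34 (edgeR adjusted p = 0.74), and the 9 other members ranged from -0.31 for *Stab2* to 0.24 for *Plvap*. None of the 10 was called, by edgeR (0.803% of all genes) or by DESeq2 (2.95%), none had an unadjusted p under 0.05, and no member separated the groups, against 22.3% of all genes. The interaction, which is the *Mcl1* effect on the Sting1-/- background minus that on the intact background, was -1.19 ± 0.48 for *Cd34* (unadjusted p = 0.0287, edgeR adjusted p = 0.316). It was called for 0 of 10 members by edgeR (0% of all genes) and by DESeq2 (1.15%), so these data did not establish that the *Cd34* response differed between the backgrounds. The comparisons share livers and are not independent of each other.

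Loss of *Sting1* alone moved no member past a threshold. Sting1-/- against WT livers gave log2 fold changes from -0.40 ± 0.26 for *Lyve1* to 0.43 ± 0.30 for *Stab2*, with 0 of 10 called by edgeR (0% of all genes) or DESeq2 (0.264%) and 0 of 10 at an unadjusted p under 0.05. The stabilins were at 0.31 ± 0.22 and 0.43 ± 0.30, and *Clec4g* at 0.28 ± 0.23. *Gata4* was the 1 member whose groups did not overlap, against 12.5% of genes, at -0.35 ± 0.27 (edgeR adjusted p = 0.998).

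A further list held 16 other sinusoidal genes. Among them were the endocytic receptors *Mrc1* and *Fcgr2b*, the nuclease *Dnase1l3* and the angiocrine factors *Wnt2*, *Wnt9b*, *Rspo3* and *Bmp2*. The median log2 fold change of the list in Mcl1Δhep against WT livers was -0.10. There 0 of the 16 rose and 1 fell, beside 20.2% of all genes called in either direction by edgeR. The 1 was *Ehd3*, an endocytic trafficking ATPase, which read 100, 81.1 and 102 CPM in WT, 68.8, 44.3 and 57.2 CPM in Mcl1Δhep, 61.1, 105 and 123 CPM in Mcl1Δhep Sting1-/- and 106, 109 and 98.4 CPM in Sting1-/- livers. It fell by 0.73 ± 0.24 on the log2 scale (edgeR adjusted p = 0.0465), a call kept in only 3 of 12 fits with 1 library left out, and its log2 fold change was -0.41 with the small RNA covariate (adjusted p = 0.499). In Mcl1Δhep Sting1-/- against Mcl1Δhep livers it stood at 0.77 ± 0.24 (adjusted p = 0.144).

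The next list held other genes of continuous and large vessels. Of 16, 14 were tested (*Apln* and *Aplnr* had too few reads), 2 rose and 0 fell in Mcl1Δhep against WT livers, all 14 log2 fold changes were above 0, and the median was 0.67 beside 0.00 for all genes. The share called higher was near the 10.8% of all genes. Those that rose were the selectins of activated endothelium. *Sele*, E-selectin, read 0.185, 0.0297 and 0.165 CPM in WT, 2.09, 1.59 and 0.98 CPM in Mcl1Δhep, 0.902, 0.219 and 0.137 CPM in Mcl1Δhep Sting1-/- and 0.0291, 0.133 and 0.0965 CPM in Sting1-/- livers, and rose by 3.58 ± 0.73 on the log2 scale (edgeR adjusted p = 0.00806). It was called in 12 of 12 fits with 1 library left out, and had an adjusted p of 0.0562 with the small RNA covariate. The WT livers, at 0.185 CPM or less, lay near the floor, so that the size of this rise is uncertain.

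*Selp*, P-selectin, which platelets also carry, read 0.528, 0.504 and 0.627 CPM in WT, 1.59, 1.84 and 0.98 CPM in Mcl1Δhep, 0.367, 0.707 and 0.547 CPM in Mcl1Δhep Sting1-/- and 0.902, 0.77 and 0.555 CPM in Sting1-/- livers. It rose by 1.41 ± 0.34 (edgeR adjusted p = 0.016), a call lost without WT replicate 2 or Mcl1Δhep replicate 2, and also when small RNA share (adjusted p = 0.119) or Y-linked expression (adjusted p = 0.106) entered the fit. For both selectins the 3 Mcl1Δhep livers lay above every other liver. The lowest of them stood at 0.98 CPM, against 0.902 CPM in the nearest other liver, for each gene. In Mcl1Δhep Sting1-/- against Mcl1Δhep livers, all 14 log2 fold changes of the list were below 0, with a median of -0.52, but 0 were called by edgeR. Of the 14, 5 had an unadjusted p under 0.05, beside 20.6% of all genes. *Selp* was at -1.43 ± 0.34 and *Sele* at -1.93 ± 0.64 (edgeR adjusted p of 0.131 and 0.155). Neither these values nor the medians are independent of the first comparison, since the same Mcl1Δhep livers enter both.

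**Figure D4:**
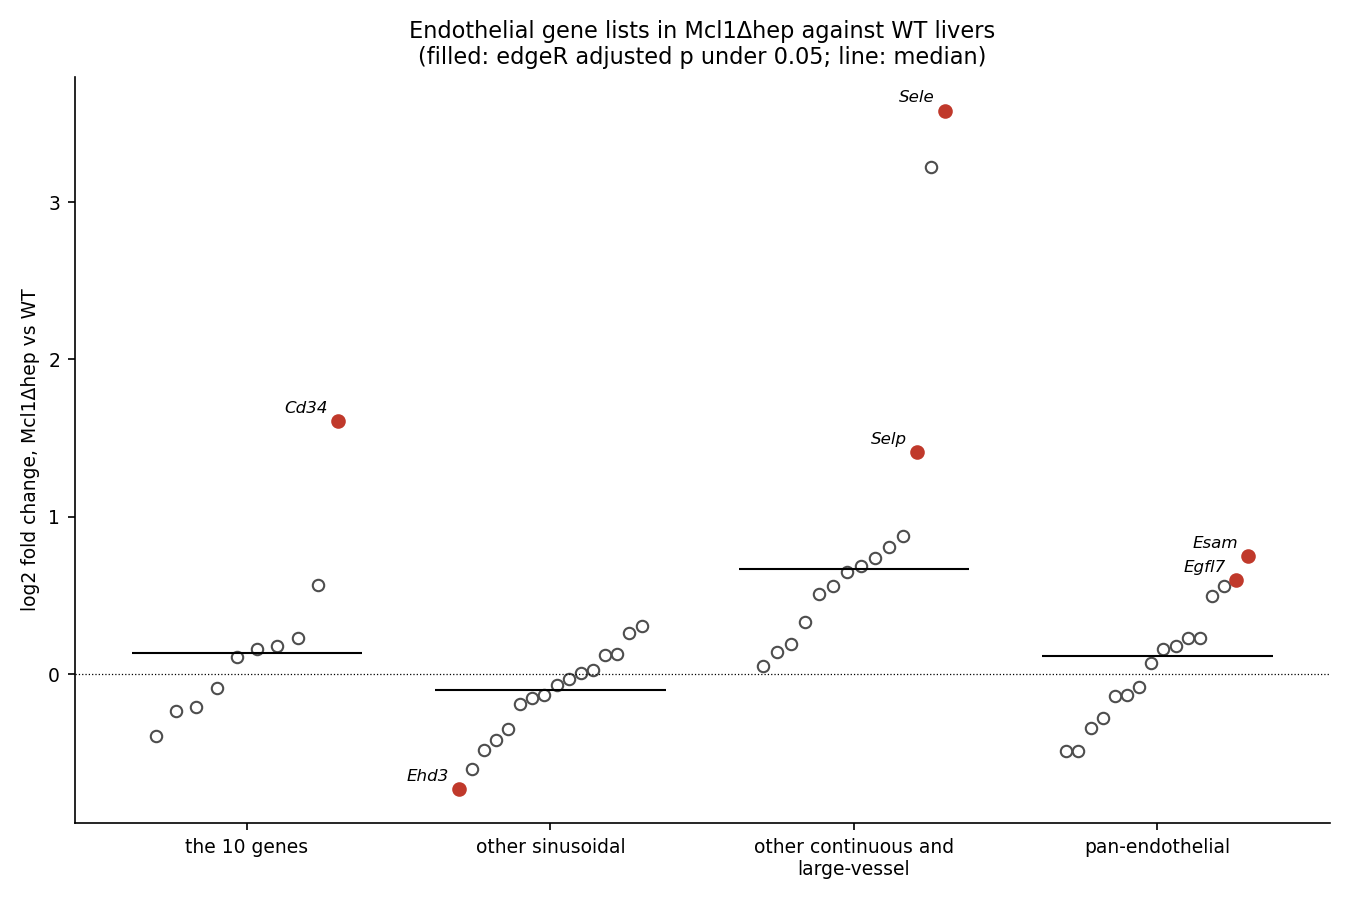
Log2 fold changes of Mcl1Δhep against WT livers for the 10 genes and for the other sinusoidal (16 tested), continuous and large-vessel (14 tested) and pan-endothelial (16 tested) genes. Each point is a gene, filled where the edgeR adjusted p was under 0.05, and horizontal lines are medians, which lie at 0.14, -0.10, 0.67 and 0.11.

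*Esm1*, a proteoglycan of sprouting endothelial cells, was singled out after its values were seen. It read 0.501, 0.682 and 0.693 CPM in WT, 8.42, 8.05 and 0.98 CPM in Mcl1Δhep, 3.71, 0.122 and 0.219 CPM in Mcl1Δhep Sting1-/- and 0.291, 0.345 and 0.169 CPM in Sting1-/- livers. Its log2 fold change against WT was 3.22 ± 1.06 with an edgeR adjusted p of 0.0503, and the Mcl1Δhep group was spread over a wider range than the distance to WT, since replicate 3 lay at 0.98 CPM, though still above all 3 WT livers. Mcl1Δhep Sting1-/- replicate 1, the highest liver of its group for *Cd34*, was so for *Sele* and *Esm1* as well, but was the lowest of its group for *Selp*. That liver was also the only one of its group with Y-linked expression.

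The last endothelial list held genes shared by most endothelium. Of 16, 2 rose and 0 fell in Mcl1Δhep against WT livers, and 9 log2 fold changes were above 0, with a median of 0.11. This share called higher was again near the 10.8% of all genes. *Esam*, an adhesion molecule of endothelial junctions and platelets, read 9.26, 8.22 and 9.64 CPM in WT and 15.5, 16.5 and 13.7 CPM in Mcl1Δhep livers and rose by 0.75 ± 0.15 on the log2 scale (edgeR adjusted p = 0.00694). The call was kept in 12 of 12 fits with 1 library left out and lost when small RNA share (0.71, adjusted p = 0.0858) or Y-linked expression (0.61, adjusted p = 0.0565) entered the fit. *Egfl7*, a secreted vessel factor, rose by 0.60 ± 0.19 (adjusted p = 0.0402), a call kept in 5 of 12 such fits and lost with either covariate (adjusted p of 0.61 and 0.21). In Mcl1Δhep Sting1-/- livers *Esam* read 9.15, 10.8 and 12.8 CPM and had a log2 fold change of -0.48 ± 0.15 against Mcl1Δhep (adjusted p = 0.145). In Sting1-/- livers *Esam* read 11, 12.1 and 12.8 CPM, all above the WT livers, at 0.41 ± 0.15 against WT (edgeR adjusted p = 0.813). Between Mcl1Δhep Sting1-/- and Sting1-/- livers, and between Sting1-/- and WT livers, edgeR called 0 genes of the sinusoidal, continuous-vessel and pan-endothelial lists. In the first comparison 1, 3 and 0 genes had an unadjusted p under 0.05, beside 11.3% of all genes. The other comparison had 0, 0 and 2, beside 5.45% of all genes.

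Lymphatic endothelium also carries *Lyve1*, and some of its markers moved. Of 4 tested, 2 rose in Mcl1Δhep against WT livers, beside 10.8% of all genes called higher. *Ccl21a*, a chemokine of lymphatic vessels, read 2.06, 0.445 and 0.693 CPM in WT and 2.88, 5.54 and 4.68 CPM in Mcl1Δhep livers and rose by 2.01 ± 0.62 (edgeR adjusted p = 0.0404). *Mmrn1*, a multimerin found in lymphatics and platelets, read 3.03, 1.42 and 0.759 CPM in WT and 4.1, 5.2 and 8.89 CPM in Mcl1Δhep livers and rose by 1.79 ± 0.58 (adjusted p = 0.0481). Calls for these genes were kept in 5 and 4 of 12 fits with 1 library left out, and both were lost with small RNA share (adjusted p of 0.415 and 0.387) or Y-linked expression (0.0843 and 0.101) in the fit. The other 2 lymphatic markers did not pass, with *Pdpn* at 0.61 ± 0.52 and *Prox1*, which hepatocytes make in quantity, at -0.35 ± 0.24. The summed lymphatic list, dominated by *Prox1*, spanned 60.1 to 102 CPM in WT and 62.8 to 71.4 CPM in Mcl1Δhep livers.

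**Figure D5:**
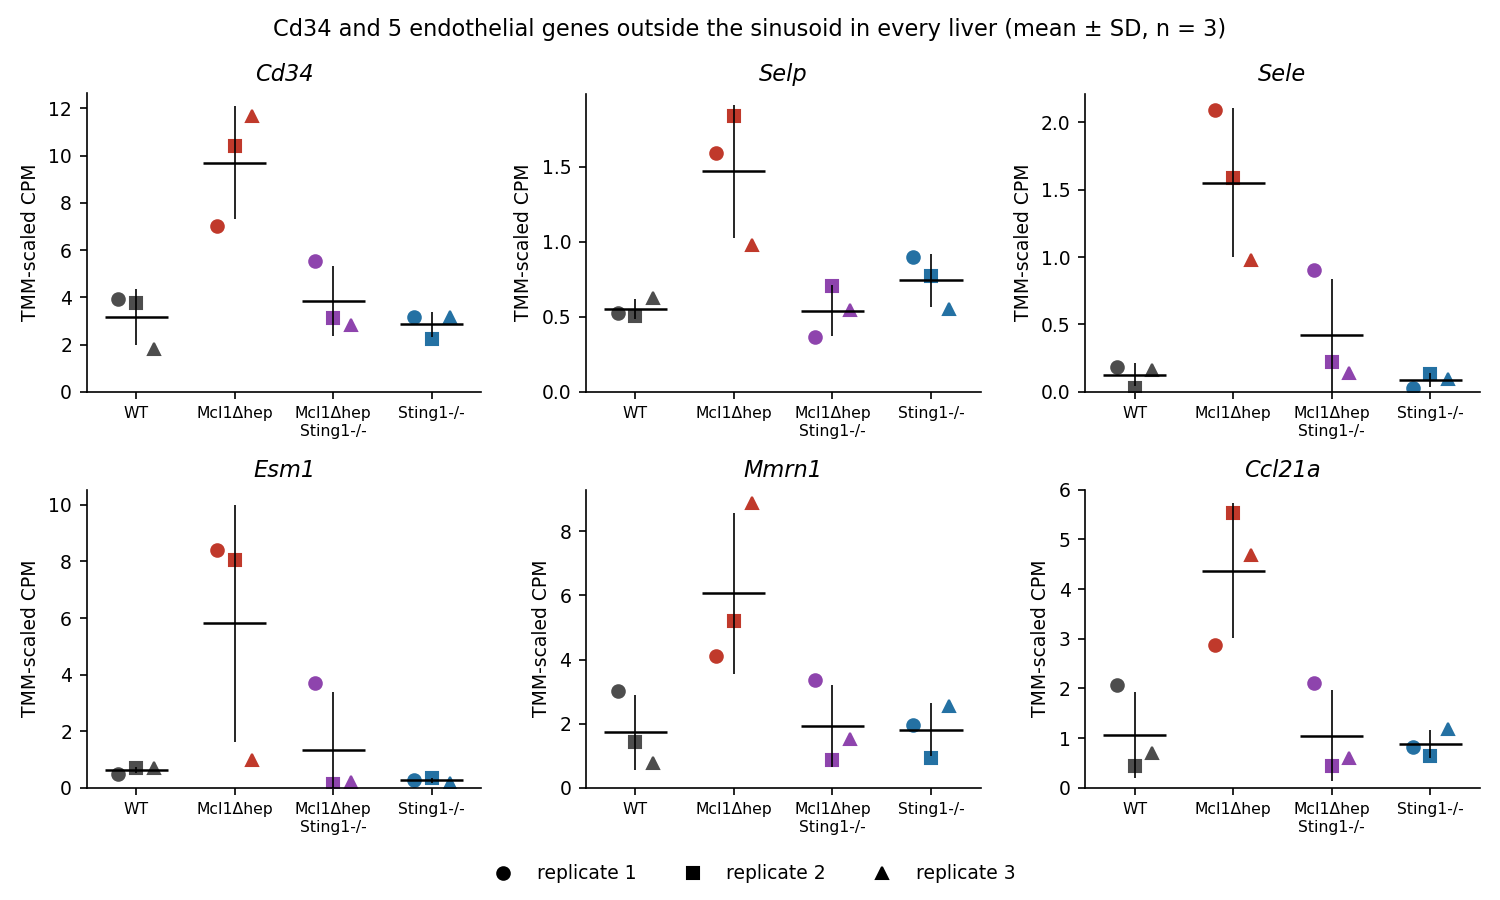
*Cd34* beside the continuous-vessel genes *Selp*, *Sele* and *Esm1* and the lymphatic genes *Mmrn1* and *Ccl21a* in every liver, in TMM-scaled CPM on linear axes from 0, with group means and SD (n = 3). Apart from *Esm1*, where an Mcl1Δhep Sting1-/- liver at 3.71 CPM exceeds an Mcl1Δhep liver at 0.98, the Mcl1Δhep livers lie above all others in each panel.

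Summed markers of macrophages and of stellate cells were also higher in Mcl1Δhep than in WT livers, though not every marker was. Summed Kupffer cell and macrophage markers spanned 460 to 727 CPM in WT, 800 to 913 CPM in Mcl1Δhep, 779 to 907 CPM in Mcl1Δhep Sting1-/- and 595 to 802 CPM in Sting1-/- livers, and 5 of 9 rose in Mcl1Δhep against WT, among them *Marco* by 2.09 ± 0.51 and *Cd68* by 1.24 ± 0.22, beside 10.8% of all genes called higher. With small RNA share in the fit all 5 calls were lost (adjusted p from 0.09 to 0.157), and that of *Adgre1* was kept in 2 of 12 fits with 1 library left out. Summed stellate cell markers spanned 438 to 587 CPM in WT, 670 to 693 CPM in Mcl1Δhep, 605 to 681 CPM in Mcl1Δhep Sting1-/- and 482 to 534 CPM in Sting1-/- livers, where 3 of 8 rose and 1 fell in Mcl1Δhep against WT, including the pericyte gene *Rgs5* by 1.14 ± 0.15, a call kept in 12 of 12 fits with 1 library left out and with small RNA share in the fit (adjusted p = 0.021). Another that rose was *Des*, desmin, which skeletal muscle also makes, by 2.52 ± 0.68. It read 7.61, 9.45 and 69.9 CPM in Mcl1Δhep livers, the last in the library with muscle transcripts, and without that library its log2 fold change was 0.76 and not called. The third was *Dcn*, decorin, by 0.52 ± 0.15, kept in 5 of 12 fits with 1 library left out. The gene that fell was *Hhip*, at -1.25 ± 0.29 (edgeR adjusted p = 0.0139). Its call was kept in 12 of 12 such fits and lost with small RNA share in the fit (-0.78, adjusted p = 0.28). Both sums lay above the WT range in Mcl1Δhep Sting1-/- livers, that of stellate cells narrowly, at 605 CPM or more against at most 587 CPM. *Cd34* in those livers overlapped WT. Mcl1Δhep Sting1-/- and WT livers were not compared by a test. The part of these cells in the *Cd34* level was not tested.

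Platelet, lymphocyte, bile duct and hepatocyte markers were examined likewise in Mcl1Δhep against WT livers. In that comparison edgeR called 10.8% of all genes higher and 20.2% in either direction. Summed platelet and megakaryocyte markers spanned 3.19 to 8.69 CPM in WT and 5.3 to 6.7 CPM in Mcl1Δhep livers. Of these 1 of 4 tested was raised, *Pf4*, by 1.27 ± 0.38, a call kept in 7 of 12 fits with 1 library left out. In all, 3 of the 4 log2 fold changes were above 0, and *Ppbp* went the other way at -1.52 ± 0.67 (edgeR adjusted p = 0.122). The defining marker *Gp9* was at 0.0264 to 0.475 CPM in WT and 0.0918 to 0.221 CPM in Mcl1Δhep livers. B and T cell markers summed to 2.14 to 5.75 CPM in WT and 3.98 to 5.34 CPM in Mcl1Δhep livers, with 1 of 5 tested raised (*Cd8a*, by 1.88 ± 0.46). Of cholangiocyte markers 0 of 5 changed, at 44.3 to 65.4 CPM in WT and 38.9 to 66.9 CPM in Mcl1Δhep livers. Of hepatocyte markers, 0 of 8 rose and 2 fell, *Cyp2e1* by 1.68 ± 0.40 and *Serpina1c* by 1.09 ± 0.19. With small RNA share in the fit the calls of *Pf4*, *Cd8a*, *Cyp2e1* and *Serpina1c* were lost (adjusted p from 0.0725 to 0.502).

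Several members were high or low in the same liver of a group. In WT replicate 2, 7 of 10 members had their lowest WT value and 0 their highest, and in Sting1-/- replicate 2, 7 of 10 had their highest value of that group. Among Mcl1Δhep livers, replicate 1 held the highest value of 5 members and replicate 2 the lowest of 6, yet *Cd34* was lowest in replicate 1. Summed over the 10 genes, the level was 313 to 418 CPM in WT, 314 to 476 CPM in Mcl1Δhep, 344 to 451 CPM in Mcl1Δhep Sting1-/- and 398 to 478 CPM in Sting1-/- livers, ranges that overlapped between all groups.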

How the data were processed

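Total RNA from 12 frozen livers (4 genotypes, 3 livers each) was sequenced on an Illumina platform. The authors deposited whole-number counts per Ensembl gene, 1 file per library. STAR, featureCounts and GRCm39 are named in the submitters' processing notes. Their versions, the annotation release and the strand setting are not given in the sources used here, so genes with overlapping exons on opposite strands may share counts. The kit also differs between the labels and the study's methods. Groups came from the genotype labels. The labels number the livers without naming animals, so p-values measure the spread between these samples. Replicates differed beyond sampling noise (chi-square per degree of freedom 40.1 or more), so none was counted as a duplicate.

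Counts were analyzed with edgeR 4.0.16 in R 4.3.3, with TMM scaling, a filter by expression within genotype, all 12 libraries in 1 quasi-likelihood fit and Benjamini-Hochberg adjustment over 15070 genes at 0.05. The contrasts were the 4 pairwise comparisons of the design and their interaction. SE was taken from the log2 fold change and the F statistic. CPM are TMM-scaled, and TPM used union exon lengths of GENCODE genes on GRCm39. The script was tested on simulated data. Identifiers of 1018 genes without annotation held at most 0.101% of counts. DESeq2 1.42.0 and further settings served as alternatives. No comparison across samples had a batch in the labels.

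The members and the gene lists were chosen with earlier results of these data known. Named genes were the 10 members, the targeted genes, and from each other list at most the 4 called genes with the largest change or, without calls, those with the lowest p. *Esm1*, *Pdpn*, *Prox1*, *Adgre1*, *Ppbp* and *Gp9* fall outside this rule and were chosen after their values were seen. Further sinusoidal genes are named without values to say what their list holds. Promoters came from the RefSeq table (built on GRCm38.p6), which holds 4 of the 10 members. *Lyve1*, *Oit3*, *Gata4*, *Vwf*, *Plvap* and *Pecam1* had no entry. Windows were trimmed at the annotated gene start. Same-numbered livers of different groups did not deviate together, so replicate numbers were not treated as pairs.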

Additional observations from a re-analysis of the deposited data

How the results depend on the processing

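*Cd34* in Mcl1Δhep against WT livers kept its direction in every setting run. It stayed called with RLE size factors, with no filter on low counts, by DESeq2, with the compared groups alone, when Y-linked expression entered the fit (1.73, adjusted p = 0.024) and with a replicate block (1.66, adjusted p = 0.0163), and lost the call with the small RNA covariate (1.33) and without Mcl1Δhep replicates 2 and 3 (1.15, a setting chosen after the data were seen). The cause was not tested. Called members in that comparison went from 1 to 0 in both of those settings and to 1 to 3 with 1 library left out, 3 without Mcl1Δhep replicate 1 (*Cd34*, *Oit3*, *Gata4*) and 2 without replicate 3 (*Cd34*, *Lyve1*). In Mcl1Δhep Sting1-/- against Mcl1Δhep livers the count went from 0 to 1 by DESeq2 and was 0 to 1 with 1 library left out. The numbers did not pair the livers, since deviations of same-numbered livers correlated from -0.541 to 0.251 over 18 pairs, and the replicate block changed no count of called members, while over all genes it moved 3050 calls to 2591 and 121 to 129.

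Over all genes, calls between Mcl1Δhep and WT livers went from 3050 to 1178 with the compared groups alone, 1531 with Y-linked expression and 417 with small RNA as covariate, 824 without Mcl1Δhep replicates 2 and 3, and 1233 to 5232 with 1 library left out. Those between Mcl1Δhep Sting1-/- and Mcl1Δhep livers went from 0 to 681 by DESeq2 and to 3108 without Mcl1Δhep replicate 1. Those between Mcl1Δhep Sting1-/- and Sting1-/- livers went from 121 to 461 by DESeq2, 17 with the compared groups alone, 45 with Y-linked expression as covariate, and 1 to 249 with 1 library left out. Those between Sting1-/- and WT livers went from 0 to 51, and those of the interaction from 0 to 170, by DESeq2, and the latter to 1574 without Mcl1Δhep replicate 1.

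Of the member log2 fold changes, 909 kept direction and side of the threshold and 74 changed sign, none of them a called value. With the small RNA covariate, Mcl1Δhep against WT turned for *Stab2* (0.30), *Clec4g* (-0.05), *Oit3* (0.28), *Gata4* (0.19) and *Vwf* (0.06), Mcl1Δhep Sting1-/- against Mcl1Δhep for *Oit3* (-0.03), *Gata4* (-0.08) and *Plvap* (-0.04), Sting1-/- against WT for *Gata4* (0.13), *Vwf* (0.09) and *Plvap* (0.07), Mcl1Δhep Sting1-/- against Sting1-/- for *Gata4* (-0.02), and the interaction for *Oit3* (-0.46), *Gata4* (-0.21), *Vwf* (-0.03) and *Plvap* (-0.11). With the Y-linked covariate the same comparisons turned for *Stab1* (-0.06) and *Clec4g* (-0.10), for *Stab1* (0.05) and *Pecam1* (0.02), for *Clec4g* (-0.01), *Oit3* (-0.19) and *Pecam1* (-0.04), for *Oit3* (0.03), and for *Stab2* (0.21) and *Pecam1* (0.06). Without Mcl1Δhep replicates 2 and 3, Mcl1Δhep against WT turned for *Stab2* (0.34), *Clec4g* (-0.14), *Oit3* (0.30) and *Gata4* (0.13), Mcl1Δhep Sting1-/- against Mcl1Δhep for *Stab2* (-0.23), *Clec4g* (0.20), *Oit3* (-0.32), *Gata4* (-0.36) and *Plvap* (-0.07), and the interaction for *Oit3* (-0.36), *Gata4* (-0.02) and *Plvap* (-0.02). The replicate block turned *Stab1* (0.01) in Mcl1Δhep Sting1-/- against Mcl1Δhep livers.

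With 1 library left out, signs turned in Mcl1Δhep against WT for *Stab1* (-0.22 to 0.26), *Stab2* (-0.63 to 0.03), *Clec4g* (-0.09 to 0.31) and *Vwf* (-0.22 to 0.13), in Mcl1Δhep Sting1-/- against Mcl1Δhep for *Stab1* (-0.17 to 0.30), *Clec4g* (-0.26 to 0.14), *Oit3* (-0.01 to 0.52), *Gata4* (-0.14 to 0.51), *Plvap* (-0.09 to 0.11) and *Pecam1* (-0.12 to 0.10), in Sting1-/- against WT for *Oit3* (-0.07 to 0.10), *Cd34* (-0.43 to 0.03), *Vwf* (-0.14 to 0.22), *Plvap* (-0.14 to 0.02) and *Pecam1* (-0.03 to 0.17), in Mcl1Δhep Sting1-/- against Sting1-/- for *Oit3* (-0.15 to 0.10), *Gata4* (-0.05 to 0.24) and *Vwf* (-0.04 to 0.17), and in the interaction for *Stab2* (-0.35 to 0.32), *Oit3* (-0.05 to 0.48), *Vwf* (-0.08 to 0.28), *Plvap* (-0.04 to 0.18) and *Pecam1* (-0.21 to 0.01).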
